A study of Mus musculus with 70 samples.

Results

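CT26.2 is a mouse colorectal cancer cell line from BALB/c mice, and the comparison here is between its response to interferon gamma (IFNg) and its response to interferon beta (IFNb). The members are the 6 CT26.2 libraries whose labels give one of the cytokines, 3 with IFNg and 3 with IFNb, out of 70 libraries in all. The IFNg cells had received 100 ng/mL and the IFNb cells 1000 activity units/mL, both for 48 hours, and 3 CT26.2 libraries without either cytokine (NS) give the starting level. These doses are in different units and only 1 dose and 1 time were used, so a difference between the cytokines is a difference between these doses at this time. All cells grew in DMEM with 10% serum, and no genetic change or other agent is named for any of the 9 libraries. The labels do not say whether replicates came from separate cultures. The error behind each p-value is therefore the variation among libraries of a group, which may be technical. It was estimated over all 70 libraries in 24 groups, so other lines enter it as well as CT26.2. RNA-seq counts per gene were compared, and the question was which genes separate the 2 cytokines in these tumour cells.

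Both interferons signal through JAK kinases, from different receptors. IFNb, a type I interferon, binds Ifnar1 with Ifnar2 and leads to a complex with Stat2 and Irf9 that binds an element called ISRE in the promoters of antiviral genes. IFNg, the type II interferon, binds Ifngr1 with Ifngr2 and leads to binding at an element called GAS. One GAS target is Irf1, itself a transcription factor that binds ISRE-like letters, so many promoters can be reached from both receptors. In tumour cells both cytokines are known for antigen presentation through MHC class I, and IFNg also for GTPases that attack intracellular pathogens and for the PD-1 ligand Cd274.

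The letters searched in promoters were TTCNNNGAA for GAS, which reads the same on both strands, and, for an ISRE-like match, GAAA, any 2 bases and GAAA on either strand. Promoter windows came from RefSeq on GRCm38.p6 and were matched by symbol. Where a symbol had several starts, the window printed was the one with the most matches, so it was chosen for them. The 160 bases before the start of 8 genes are printed 5′ to 3′ on the gene's strand, with the matches in capitals, because these genes stand for the range of differences between IFNg and IFNb that is described next.
Irf1 (chr11:53769854-53770013, plus strand): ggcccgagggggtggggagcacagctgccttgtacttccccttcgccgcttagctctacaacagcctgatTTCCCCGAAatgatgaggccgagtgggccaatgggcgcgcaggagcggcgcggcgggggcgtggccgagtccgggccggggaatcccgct
Igtp (chr11:58199396-58199555, plus strand): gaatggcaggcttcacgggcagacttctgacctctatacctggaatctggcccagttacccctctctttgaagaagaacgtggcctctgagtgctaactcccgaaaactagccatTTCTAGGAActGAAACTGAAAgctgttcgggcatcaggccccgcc
Gbp2 (chr3:142620503-142620662, plus strand): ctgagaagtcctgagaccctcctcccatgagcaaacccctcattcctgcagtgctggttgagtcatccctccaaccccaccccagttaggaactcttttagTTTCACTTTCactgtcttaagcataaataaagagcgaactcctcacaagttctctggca
Socs1 (chr16:10785537-10785696, minus strand): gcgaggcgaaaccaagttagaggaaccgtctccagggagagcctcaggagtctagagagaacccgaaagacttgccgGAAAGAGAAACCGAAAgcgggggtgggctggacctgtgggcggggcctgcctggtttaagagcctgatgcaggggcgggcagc
Ifit3 (chr19:34583369-34583528, plus strand): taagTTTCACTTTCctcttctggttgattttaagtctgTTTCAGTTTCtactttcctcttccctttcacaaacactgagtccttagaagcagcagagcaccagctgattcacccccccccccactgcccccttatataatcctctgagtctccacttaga
Ifit1 (chr19:34640729-34640888, plus strand): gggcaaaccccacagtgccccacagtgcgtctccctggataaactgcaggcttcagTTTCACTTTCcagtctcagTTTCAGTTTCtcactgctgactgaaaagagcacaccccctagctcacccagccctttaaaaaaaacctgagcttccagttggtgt
Isg15 (chr4:156200819-156200978, minus strand): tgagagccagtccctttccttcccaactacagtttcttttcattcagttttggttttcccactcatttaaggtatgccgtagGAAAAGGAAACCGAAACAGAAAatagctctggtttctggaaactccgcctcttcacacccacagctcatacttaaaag
Oas1a (chr5:120907526-120907685, minus strand): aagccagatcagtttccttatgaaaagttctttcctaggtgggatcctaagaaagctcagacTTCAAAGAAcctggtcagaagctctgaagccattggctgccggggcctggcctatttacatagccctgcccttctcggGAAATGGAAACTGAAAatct
In these windows Irf1 held a GAS match and no ISRE-like one. Igtp and Oas1a held matches to both motifs. Gbp2, Socs1, Ifit3, Ifit1 and Isg15 held ISRE-like matches, which overlap each other in Socs1, Isg15 and Oas1a. A match is only a description of letters, and the levels given below show that genes with like letters differed widely in how far IFNg and IFNb separated them.

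The 9 CT26.2 libraries held between 1898464 and 7688257 estimated counts. The IFNg libraries held 2570492, 2689084 and 6310598 counts, the IFNb libraries 6306363, 3672609 and 1898464, and the NS libraries 7688257, 4451334 and 4715147. Levels are in CPM, counts scaled for depth. The limit set by 3 counts in a whole group, called the floor, was 0.262 CPM with IFNg, 0.250 with IFNb and 0.178 with NS. Mitochondrially encoded genes took 2.80 to 3.90% of counts with IFNg, 2.31 to 4.12% with IFNb and 3.45 to 4.31% with NS. Of the 14 epithelial markers listed, Epcam and Krt19 had no count in any of the 9 libraries, Cdh1 had at most 0.314 CPM and Krt18 had 31.7, 33.6 and 26.7 CPM with IFNg, 31.4, 37.4 and 33.6 CPM with IFNb and 29.6, 34.4 and 36.4 CPM with NS. The mesenchymal marker Vim averaged 2195 ± 145 CPM with IFNg, 2161 ± 168 with IFNb and 2239.9 ± 79.01 with NS (SD, n = 3 each). Krt20 and Krt7 had 85 and 40 counts over the IFNg group and 95 and 56 over the IFNb group. Epcam and Cdh1, which define epithelium, were therefore at or under the floor in a line labelled as colorectal, while some keratins were detected. Grhl2 and Muc1 were detected too, with 26 and 17 counts over the IFNg group, and 9 of the 14 epithelial markers had 3 or fewer. Of 14 intestinal markers, 12 had 3 or fewer counts over the IFNg group, and Lgals4 and Cdh17 had 43 and 24. The 18 leukocyte markers summed to between 12.4 and 21.6 CPM over the 9 libraries, with Ptprc among those that did not reach the filter for testing.

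Among 16147 genes tested, more were higher than lower with IFNg, and by larger folds. An adjusted p under 0.05 (edgeR, quasi-likelihood, adjusted by the Benjamini-Hochberg method over all genes tested) is what "higher", "lower" and "called" mean throughout. With IFNg, 406 genes (2.51%) were higher and 243 (1.5%) lower than with IFNb, the shares to set beside the counts of each gene list below. That balance moved with the libraries and the filter, to 370 higher and 67 lower without IFNb replicate 1, 407 and 346 without IFNb replicate 3, and 424 and 405 with no filter on low counts. With the 6 CT26.2 libraries alone, 217 were higher and 14 lower, and with the 9 CT26.2 libraries alone 235 and 18. In the fit on 9 libraries, 231 of the 406 were again called higher and 15 of the 243 lower. At a difference of at least 2-fold, 147 genes (0.910%) were higher and 11 (0.0681%) lower. At least 4-fold, 70 genes (0.434%) were higher and 7 (0.0434%) lower. As a description of genes chosen on these libraries, in 144 of the 147 every IFNg library lay above every IFNb library, and the 147 took 2.24 to 2.3% of all counts with IFNg, 0.631 to 0.667% with IFNb and 0.416 to 0.424% with NS. Of the 147, 131 were protein coding, 19 were predicted or unnamed loci, and 118 were called in all of the 6 fits that each left out 1 of the 6 libraries.

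**Figure D1:**
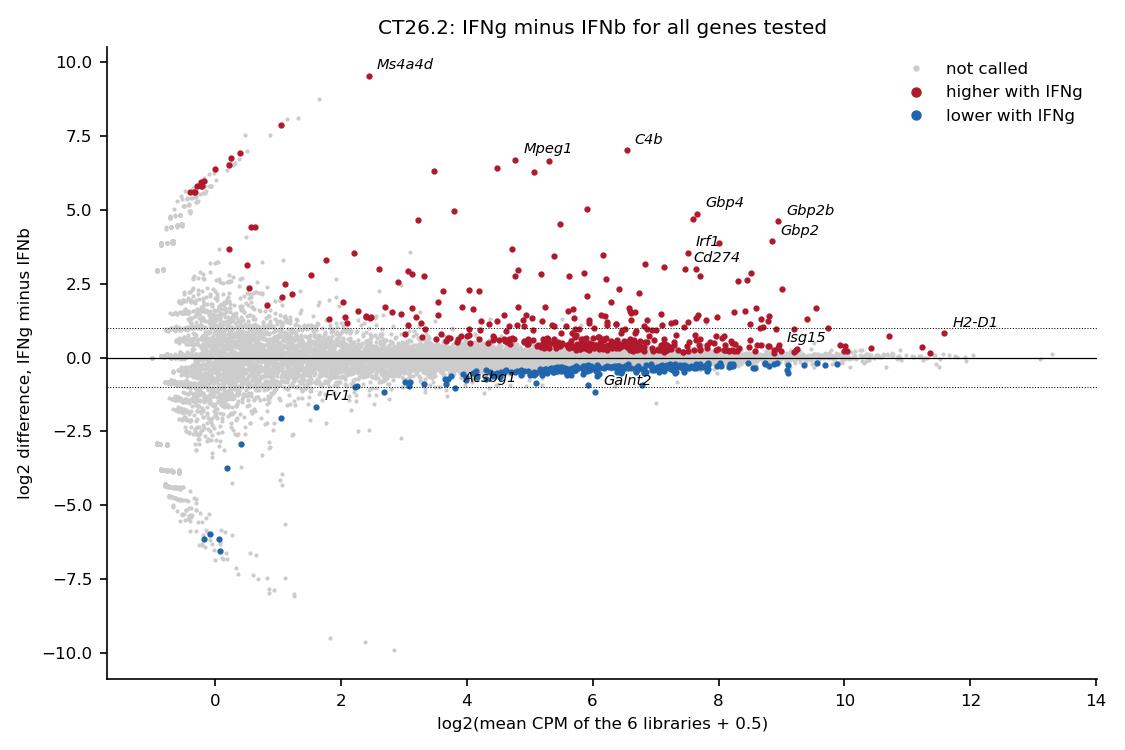
Difference between CT26.2 cells with IFNg and with IFNb for the 16147 genes tested. The x axis is the log2 of the mean CPM over the 6 libraries plus 0.5, the y axis is the log2 difference (IFNg minus IFNb), each point is a gene, dotted lines mark a 2-fold difference, and red and blue points are the 406 genes called higher and the 243 called lower with IFNg. Above the low levels at the left, red points reach a difference of 7.02 (C4b), while blue points stay near or above -1.15 (Galnt2).

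The transcription factors of the interferon pathway differed by member. Irf1, the IFNg-induced activator at chr11:53770014-53778374, had 328, 337 and 339.8 CPM in the 3 IFNg libraries, 26.5, 32.1 and 27.9 CPM in the IFNb libraries and 20.8, 17.97 and 22.3 CPM in the NS libraries. The IFNg libraries were far above the other 6 and the IFNb libraries all above the NS libraries. The log2 difference between IFNg and IFNb was 3.55 ± 0.08 (SE), or 11.7-fold, with an adjusted p of 1.3e-40. Batf2, a basic leucine zipper factor, had 91.6, 76.9 and 84.1 CPM with IFNg, 3.45, 2.94 and 5.78 CPM with IFNb and 2.103, 2.25 and 1.895 CPM with NS, a log2 difference of 4.51 ± 0.17 between the cytokines (adjusted p = 1.6e-29). Batf2 was not called between IFNb and NS (log2 0.81, adjusted p = 0.245), although its IFNb libraries lay above its NS libraries.

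Stat2, a subunit of the type I complex, was higher with IFNg, at 583, 540.0 and 565 CPM against 246, 312 and 262 CPM with IFNb (log2 1.04 ± 0.09, adjusted p = 1.9e-14). Irf9, which binds DNA in that complex, was not called between the cytokines (adjusted p = 1.0), with 97.4, 116 and 116 CPM with IFNg, 109, 106 and 120.3 CPM with IFNb and 108, 107 and 94.3 CPM with NS. Stat3 was 2.28-fold higher with IFNg (104, 103 and 105 CPM, against 53.01, 38.75 and 40.99 CPM with IFNb), and it was not called between IFNb and NS (log2 -0.16, adjusted p = 0.495). Stat6, a factor of interleukin signalling, had 149.9, 156 and 154 CPM with IFNg and 148, 154 and 149 CPM with IFNb and was not called (adjusted p = 0.942).

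The receptors moved little. The list of interferon receptors and signalling also holds JAK kinases and transcription factors. Of its 13 members tested, 4 were higher with IFNg, 3 of them by at least 2-fold, and none lower. Its median log2 difference was 0.04, beside 0 over all genes tested. Ifnar2, a chain of the type I receptor, was the only receptor chain called. It had 44.6, 38.1 and 36.97 CPM with IFNg and 26.5, 24.1 and 26.8 CPM with IFNb (log2 0.61 ± 0.13, adjusted p = 7.7e-04). Ifnar1 averaged 50.7 ± 2.09 CPM with IFNg and 52.3 ± 3.85 CPM with IFNb, and Ifngr1, a chain of the IFNg receptor, 20.8 ± 6.33 CPM with IFNg and 25.5 ± 1.93 CPM with IFNb (SD, n = 3 each). Neither receptor chain was called (adjusted p = 0.886 for Ifnar1 and 0.419 for Ifngr1).

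Among the regulatory factors, 4 of 10 tested were higher with IFNg, with a median of 0.67. Besides Irf1 and Batf2, Irf2, which competes with Irf1 for its sites, had 36.01, 50.8 and 49.2 CPM with IFNg and 31.1, 31.8 and 26.3 CPM with IFNb (log2 0.60 ± 0.11, adjusted p = 1.2e-04). Irf7, the amplifier of the type I response, differed little between the cytokines, at 661, 682 and 655 CPM with IFNg, 538, 539 and 551 CPM with IFNb and 264, 239.7 and 242 CPM with NS. Its difference of 0.29 ± 0.08 passed the threshold (adjusted p = 0.0242) and missed it without IFNb replicate 1, IFNb replicate 2, IFNg replicate 1 or IFNg replicate 2, with the highest adjusted p at 0.0874. Both cytokines placed Irf7 more than 2-fold above NS (log2 1.42 with IFNg and 1.12 with IFNb).

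Of the 16 feedback inhibitors, 2 were higher with IFNg and none lower (median -0.06), beside 2.51% and 1.5% of all genes tested. Socs1, which blocks JAK kinases, had 32.1, 30.98 and 27.3 CPM with IFNg, 11.8, 11.8 and 16.8 CPM with IFNb and 10.3, 6.07 and 7.79 CPM with NS, and the cytokine groups did not overlap (log2 1.22 ± 0.18, adjusted p = 7.5e-07). Socs3 had 26.22, 25.4 and 25.7 CPM with IFNg and 16.8, 15.8 and 16.3 CPM with IFNb (log2 0.65 ± 0.16, adjusted p = 0.00526). The phosphatase Ptpn11 averaged 257 ± 12.9 CPM with IFNg and 290.2 ± 23.6 CPM with IFNb and was not called (adjusted p = 0.173).

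**Figure D2:**
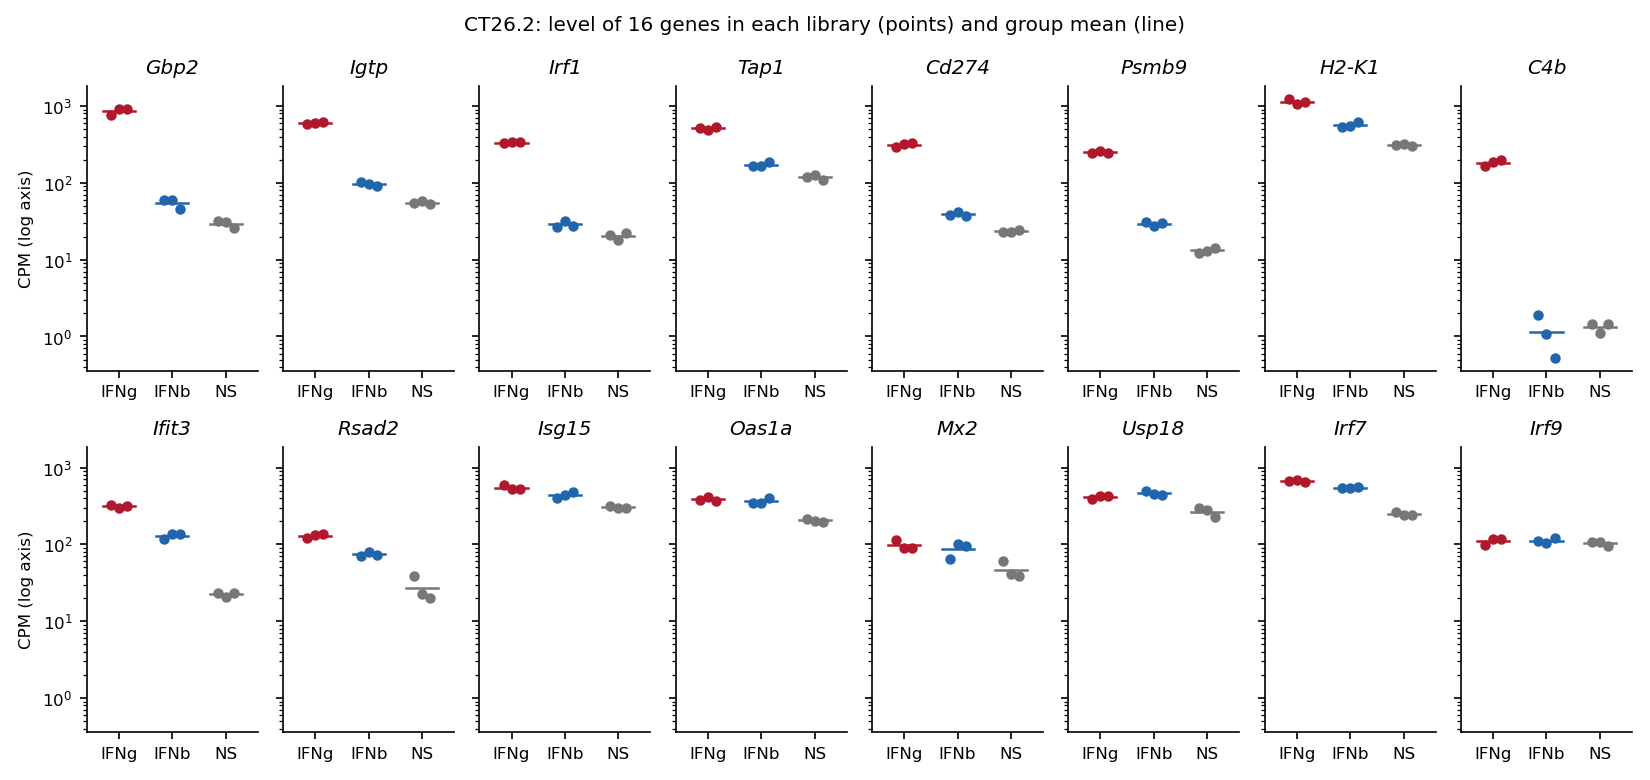
Levels of 16 genes in CT26.2 with IFNg, with IFNb and without cytokine (NS). The y axis is CPM on a log axis, each point is 1 library, and each line is the mean of 3 libraries. In the upper row the IFNg libraries lie apart from the IFNb libraries in every panel (C4b has 168 to 198 CPM with IFNg and at most 1.88 CPM with IFNb). In the lower row the groups with IFNg and IFNb lie close, apart from Ifit3 and Rsad2.

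The guanylate-binding proteins (Gbp) and immunity-related GTPases, which disrupt the vacuoles of intracellular pathogens, had the highest median difference of the 30 lists. Of 20 members tested, 19 were higher with IFNg and none lower, 18 of them by at least 2-fold, with a median log2 difference of 2.93. The list also holds Mndal, a gene of the Ifi200 family and not a GTPase, which was called higher by less than 2-fold (log2 0.49). Mndal is included in every count given for this list. The list summed to between 6860 and 7586 CPM in the IFNg libraries, 1228 to 1369 CPM in the IFNb libraries and 716 to 781 CPM in the NS libraries. In 19 members every IFNg library lay above every IFNb library, and the remaining member, Gvin1, was near the floor in all groups.

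Gbp2, a vacuole-targeting GTPase, had 775, 927 and 905 CPM with IFNg, 59.8, 59.9 and 45.7 CPM with IFNb and 31.4, 31 and 25.7 CPM with NS. It was 15.3-fold higher with IFNg (log2 3.94 ± 0.09, adjusted p = 1.4e-40), while IFNb itself placed it 1.92-fold above NS. Gbp4 had 371, 396 and 397 CPM with IFNg, 11.9, 17.1 and 9.98 CPM with IFNb and 3.42, 2.696 and 3.58 CPM with NS, a 29.3-fold difference between the cytokines (log2 4.87 ± 0.13, adjusted p = 3.5e-37). Gbp4 and Gbp2 thus rose with both cytokines over NS and far more with IFNg. Gbp10 had the widest difference of the list, with 95.5, 120.2 and 131 CPM with IFNg against 5.96, 0 and 3.15 CPM with IFNb (log2 5.02 ± 0.29, adjusted p = 2.5e-20), and 1 IFNb library had no count. Gbp2b had 846, 1008 and 991 CPM with IFNg and 41.6, 39.6 and 31.5 CPM with IFNb (log2 4.61 ± 0.11, adjusted p = 4.1e-30), and Gbp11, annotated as a polymorphic pseudogene, 28.6, 23.9 and 26.04 CPM with IFNg and 1.25, 0.534 and 0 CPM with IFNb.

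The immunity-related GTPases were spread from Iigp1 to Irgm1. Iigp1, an effector that coats parasite vacuoles, had 454, 498 and 497 CPM with IFNg, 28.1, 43.8 and 26.3 CPM with IFNb and 5.78, 6.07 and 5.48 CPM with NS. It stood 14.7-fold higher with IFNg than with IFNb (log2 3.87 ± 0.12, adjusted p = 3.6e-34) and 5.702-fold higher with IFNb than with NS. Igtp (also called Irgm3), one of the regulatory members, had 589, 595 and 623 CPM with IFNg, 102, 97.8 and 91.96 CPM with IFNb and 54.5, 58.4 and 53.5 CPM with NS (log2 2.62 ± 0.08 between the cytokines, adjusted p = 3.2e-35). Irgm1, another regulatory member, chosen after its values were seen, was closer, at 452, 541 and 503 CPM with IFNg and 230.1, 223 and 225 CPM with IFNb (log2 1.14 ± 0.07). Tgtp1 and Tgtp2, named after their values were seen, are near-identical copies, so their split is uncertain. Tgtp1 averaged 644 ± 16.9 CPM with IFNg and 87.8 ± 6.22 CPM with IFNb (SD, n = 3 each). Gbp genes share sequence as well, and how reads were divided among them cannot be checked from counts per gene.

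These GTPase genes sit in clusters. Genes higher with IFNg at least 2-fold and near each other were taken as runs, which begin and end at such genes, so their share within a run starts high. On GRCm38, chr3:142493978-142638008 held 6 genes tested, all higher with IFNg by at least 2-fold, among them Gbp5, Gbp7, Gbp3, Gbp2b and Gbp2. In chr5:105014150-105346472, with Gbp8, Gbp9, Gbp4, Gbp10, Gbp6 and Gbp11, all 7 genes tested were higher by at least 2-fold. In chr11:58187739-58222782, with Igtp and Irgm2, all 3 were. The Irf1 interval chr11:53770014-53859256 held 3 such genes of 3 tested, and chr9:5298517-5373032, with Casp1, Casp4 and Casp12, held 3 of 3. Other runs were mixed. The run chr11:48861968-49135387 with Irgm1, Tgtp1, Tgtp2 and Ifi47 held 5 such genes of 11 tested, and chr17:33915899-34216321 with Tap1, Tap2, Psmb8 and Psmb9 held 7 of 25. In chr1:84992690-85645037, with Sp110 and Sp140, 3 of 16 were, and in chr6:124304656-124542359, with C1ra and C1s1, 3 of 6. Of the 144 genes higher at least 2-fold that could be placed in the annotation, 56 lay in 12 such runs of 3 or more with gaps of at most 500 kb, where a gap counts bases between neighbouring genes of the set. Reads shared between overlapping or related neighbours can add to such runs, and their part was not tested.

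The genes of MHC class I presentation were the second broad group. Of 31 members tested, 26 were higher with IFNg, 20 by at least 2-fold, and none was lower, with a median log2 difference of 1.28. Their sum lay between 14717 and 15000 CPM with IFNg, 7881 and 8244 CPM with IFNb, and 5579 and 5887 CPM with NS. The largest differences were in the 3 catalytic subunits of the immunoproteasome, the protease form that favours class I peptides. Psmb9 had 245, 261 and 244 CPM with IFNg, 31.2, 27.5 and 29.95 CPM with IFNb and 12.2, 13.03 and 14.3 CPM with NS (log2 3.07 ± 0.11 between the cytokines, adjusted p = 1.9e-31). Psmb10 had 217, 197 and 194 CPM with IFNg and 22.6, 22.2 and 24.2 CPM with IFNb, 8.87-fold apart (adjusted p = 3.4e-29). Psmb8 was 7.21-fold higher with IFNg, at 115, 85.1 and 104 CPM against 13.8, 14.7 and 13.7 CPM with IFNb (adjusted p = 2.6e-24). Between IFNb and NS, Psmb8 passed the threshold narrowly (log2 0.68, adjusted p = 0.0493).

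Peptide transport and loading followed at smaller folds. Tap1, a subunit of the peptide transporter, had 512, 495 and 534 CPM with IFNg, 163, 168 and 186 CPM with IFNb and 117, 126 and 111 CPM with NS (log2 1.59 ± 0.08, adjusted p = 2.6e-24). Tapbpl, a peptide editor, had 55.6, 58.6 and 57.9 CPM with IFNg and 18.8, 16.03 and 16.3 CPM with IFNb (log2 1.72 ± 0.14, adjusted p = 1.3e-15), while IFNb and NS were not called apart there (log2 0.06). Nlrc5, the activator of class I promoters, had 140.1, 149 and 147 CPM with IFNg, 43.1, 51.3 and 40.99 CPM with IFNb and 34.8, 29.9 and 28.4 CPM with NS. It was 3.201-fold higher with IFNg than with IFNb (adjusted p = 8.5e-20). Canx, a general chaperone of the endoplasmic reticulum, was not called (log2 -0.10 ± 0.07, adjusted p = 0.5603).

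Class I chains had smaller differences than the immunoproteasome. H2-K1 had 1237, 1076 and 1123 CPM with IFNg, 538, 555 and 615 CPM with IFNb and 306, 317 and 303 CPM with NS, and the 3 groups did not overlap (log2 1.01 ± 0.08 between the cytokines, adjusted p = 5.4e-15, and 0.88 between IFNb and NS). B2m, the light chain, had 2029, 2101 and 2098 CPM with IFNg, 1314, 1197 and 1283 CPM with IFNb and 689, 738 and 768 CPM with NS (log2 0.72 ± 0.06, adjusted p = 2.6e-14). H2-D1, chosen after its values were seen, averaged 3934 ± 19.4 CPM with IFNg and 2215 ± 44.1 CPM with IFNb (SD, n = 3 each). Class I genes are near-copies of each other, and CT26.2 carries BALB/c alleles while GRCm38 is the C57BL/6 genome, so the division of reads between H2 genes is uncertain.

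None of the 11 members of the MHC class II list tested was called, 8 of the 12 in the table had 3 or fewer counts over the IFNg group and as many over the IFNb group, and the list summed to 32.0 to 35.6 CPM with IFNg and 29.1 to 46.8 CPM with IFNb. Ciita, the master activator of class II, had 0, 0.746 and 0.482 CPM with IFNg and 0, 0 and 1.05 CPM with IFNb, near the floor. The invariant chain Cd74 had 1.17, 2.99 and 1.61 CPM with IFNg, 2.196, 1.07 and 1.05 CPM with IFNb and 1.18, 1.57 and 1.895 CPM with NS, and H2-Aa had no count in the 9 libraries. Ifi30, a thiol reductase of antigen processing, had 31.3, 27.6 and 27.6 CPM with IFNg and 28.5, 24.9 and 42.6 CPM with IFNb and was not called (log2 -0.07 ± 0.15, adjusted p = 0.933).

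The antiviral effectors, the textbook targets of type I interferon, lay closer between the cytokines than the GTPase and class I genes. Of 43 members tested, 18 were higher with IFNg and 1 was lower, with a median log2 difference of 0.25 and 4 members past 2-fold. Summed, the list lay at 11983 to 12557 CPM with IFNg, 9709 to 10540 CPM with IFNb and 6504 to 7326 CPM with NS. Against NS, 36 members were higher and 1 lower with IFNg (4.97% of all genes tested were higher and 3.86% lower), and 34 were higher and 1 lower with IFNb (1.97% of all genes higher and 0.929% lower). These 2 contrasts share the NS libraries and are given side by side only. Their medians over the list were 0.88 with IFNg and 0.54 with IFNb.

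Ifit3, which binds viral RNA, had 327, 297 and 315 CPM with IFNg, 117, 137 and 136 CPM with IFNb and 23.4, 20.4 and 22.95 CPM with NS, with no overlap between groups. It was 2.44-fold higher with IFNg than with IFNb (log2 1.29 ± 0.11, adjusted p = 4.2e-14) and 5.72-fold higher with IFNb than with NS. Rsad2 (viperin) had 119, 133 and 137 CPM with IFNg, 69.95, 79.4 and 73.04 CPM with IFNb and 38.4, 22.9 and 20.01 CPM with NS (log2 0.82 ± 0.15 between the cytokines, adjusted p = 1.2e-04). Ifit1 was closer, at 450.5, 451 and 438 CPM with IFNg and 315, 356 and 338 CPM with IFNb (log2 0.41 ± 0.10, adjusted p = 0.00422), still without overlap. Isg15, a ubiquitin-like modifier, had 584, 525 and 529 CPM with IFNg, 398, 441 and 478 CPM with IFNb and 315, 297 and 298 CPM with NS. Its call (log2 0.32 ± 0.10, adjusted p = 0.0381) was kept without IFNb replicate 3 and lost without any other of the 6 libraries, with the highest adjusted p at 0.212.

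Other members were level between the cytokines. Oas1a, which makes the activator of RNase L, had 381, 408 and 366 CPM with IFNg, 346, 347 and 398 CPM with IFNb and 217, 204 and 197 CPM with NS. The cytokine groups overlapped (log2 0.09 ± 0.09, adjusted p = 0.736), and both lay above all NS libraries. Usp18, which removes Isg15 and dampens Ifnar2, had 389, 423 and 423 CPM with IFNg and 496, 447 and 441 CPM with IFNb, all IFNb libraries being higher, and it was not called (log2 -0.17 ± 0.09, adjusted p = 0.366). Mx1, a gene of the dynamin-like GTPases, had 31.7, 18.7 and 19.3 CPM with IFNg, 12.9, 23.2 and 16.8 CPM with IFNb and 3.68, 2.696 and 2.11 CPM with NS. IFNg and IFNb overlapped for Mx1 (adjusted p = 0.423) while both were clear of NS. Ifi44 averaged 1171 ± 53.9 CPM with IFNg, 1113 ± 34.3 CPM with IFNb and 765 ± 78.4 CPM with NS (SD, n = 3 each). Bst2 (tetherin) had 1408, 1267 and 1300.3 CPM with IFNg and 971, 1125 and 1206 CPM with IFNb and was not called (adjusted p = 0.0748).

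The widest antiviral difference was in Samhd1, which depletes nucleotides, with 584, 572 and 618 CPM with IFNg, 187, 175 and 195 CPM with IFNb and 139, 137 and 142 CPM with NS (log2 1.68 ± 0.06 between the cytokines, adjusted p = 8.5e-31). Ifi44l had 117, 93.7 and 92.7 CPM with IFNg and 28.7, 41.7 and 44.1 CPM with IFNb (log2 1.42 ± 0.21, adjusted p = 8.2e-05). Oasl2 was called with a smaller difference (log2 0.43 ± 0.09, adjusted p = 8.8e-04), and its IFNg libraries (1226, 1023 and 1092 CPM) lay above its IFNb libraries (663, 941 and 894 CPM). The 1 member called lower with IFNg was Helz2, a helicase, chosen after its values were seen, with 312, 329.6 and 357 CPM with IFNg and 425, 485 and 370.5 CPM with IFNb (log2 -0.36 ± 0.11, adjusted p = 0.0388). The Helz2 call was lost without IFNb replicate 1, IFNb replicate 2, IFNg replicate 1 or IFNg replicate 2 (highest adjusted p 0.256). Not one antiviral member was 2-fold higher with IFNb than with IFNg.

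**Figure D3:**
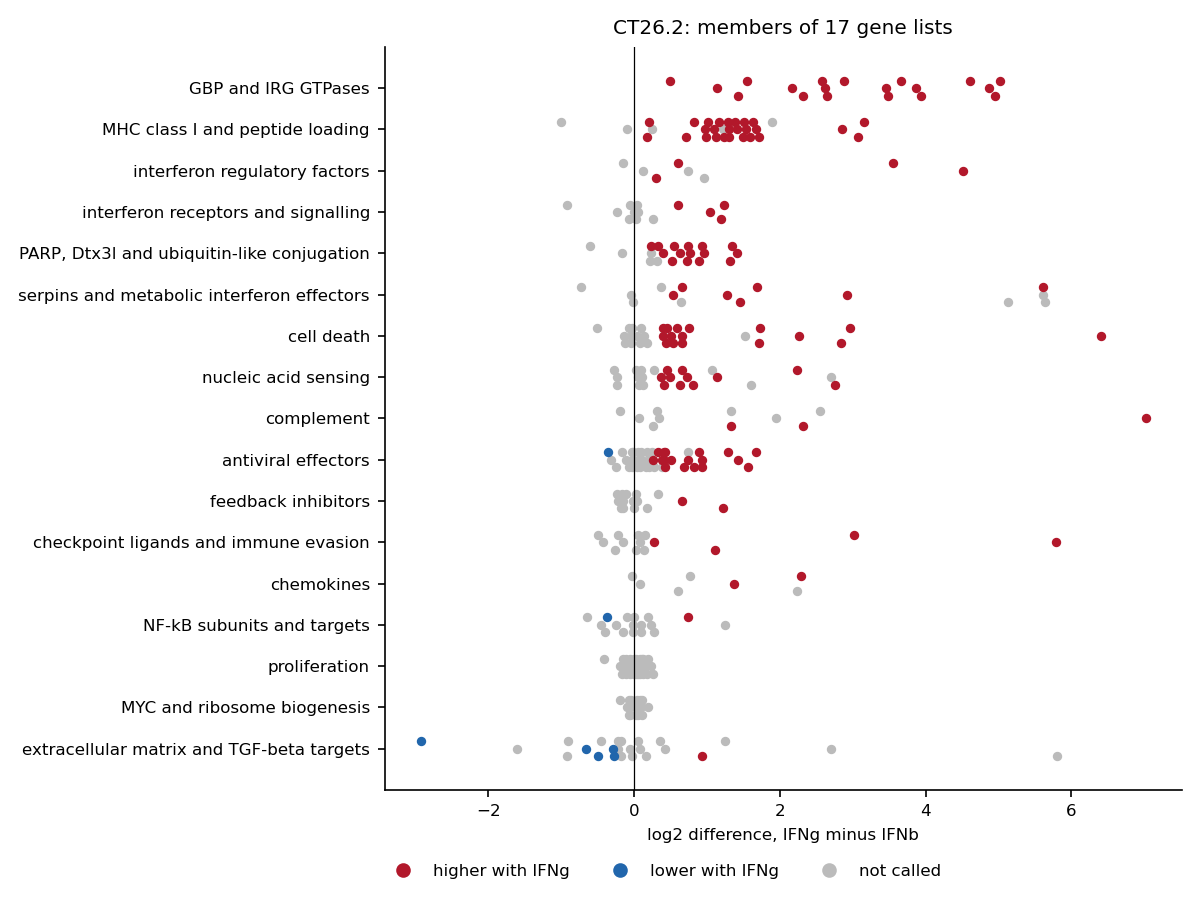
Log2 difference (IFNg minus IFNb, x axis) of the members of 17 gene lists in CT26.2, leaving out members with 3 or fewer counts in both groups. Each point is a gene, red where it was called higher with IFNg, blue where lower and grey where not called. Members of the GTPase and class I lists lie mostly to the right, those of the antiviral list near 0 or to its right, and those of the proliferation list around 0.

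Sensors of nucleic acids and the machinery around Isg15 lay between these groups. Of 27 sensing genes tested, 11 were higher with IFNg and none lower (median 0.37). Zbp1, a sensor of Z-form nucleic acid upstream of necroptosis, had 369, 358 and 362 CPM with IFNg, 47.7, 61.7 and 53.6 CPM with IFNb and 15.4, 10.6 and 8.85 CPM with NS, which is 6.76-fold between the cytokines (log2 2.76 ± 0.10, adjusted p = 3.5e-29). Zbp1 also stood 4.42-fold higher with IFNb than with NS. Ifi205 (21.9, 19.8 and 17.7 CPM with IFNg, 3.92, 5.08 and 2.63 CPM with IFNb) and Ifi207 (99.8, 123 and 121 CPM with IFNg, 51.3, 60.9 and 39.9 CPM with IFNb) belong to the Ifi200 family of near-copies, so their split is uncertain. Ddx58, the RNA sensor RIG-I, was not called, at 190.2, 169 and 192 CPM with IFNg and 169.7, 175 and 208 CPM with IFNb (adjusted p = 1.0).

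In the list of PARP, Dtx3l and ubiquitin-like conjugation genes, 15 of 21 tested were higher with IFNg and none lower (median 0.54). Uba7, the activating enzyme for Isg15, had 122, 83.6 and 105 CPM with IFNg, 30.9, 46.2 and 46.2 CPM with IFNb and 21.2, 17.5 and 18.1 CPM with NS (log2 1.41 ± 0.13, adjusted p = 2.0e-12). Parp14, an ADP-ribosyltransferase, had 279.8, 278 and 303 CPM with IFNg and 119, 113 and 104 CPM with IFNb (log2 1.34 ± 0.09, adjusted p = 4.9e-18). The enzyme that activates Isg15 was thus separated by more than Isg15 itself, whose difference was 0.32 on the log2 scale; the difference between these 2 genes was not tested. Rnf213 was not called, at 579, 651 and 676 CPM with IFNg and 564, 584 and 479 CPM with IFNb (adjusted p = 0.511).

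Of 12 Schlafen and Ly6 genes tested, 5 were higher with IFNg and none lower (median 0.53). Ly6a, the surface protein Sca-1, had 406, 344 and 367 CPM with IFNg, 16.8, 12.8 and 11.6 CPM with IFNb and 1.71, 2.47 and 4.001 CPM with NS, so IFNb placed it 5.65-fold above NS and IFNg a further 25.5-fold above IFNb (log2 4.67 ± 0.13, adjusted p = 6.4e-35). Ly6c1 had 20.7, 13.1 and 17.4 CPM with IFNg and at most 0.784 CPM in an IFNb library (log2 4.66 ± 0.33, adjusted p = 6.2e-17). Ly6 genes share sequence, so the division among them is uncertain. The Schlafen gene Slfn9 was not called (adjusted p = 0.191) and averaged 312 ± 9.32 CPM with IFNg and 273 ± 16.4 CPM with IFNb (SD, n = 3 each).

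Some genes, C4b among them, responded to IFNg and not detectably to IFNb. C4b, the complement component at chr17:34728380-34743882, had 168, 185 and 198 CPM with IFNg, 1.88, 1.07 and 0.525 CPM with IFNb and 1.45, 1.12 and 1.47 CPM with NS. The IFNb and NS libraries overlapped (log2 0.04, adjusted p = 1.0), and IFNg stood 130.0-fold above IFNb (log2 7.02 ± 0.18, adjusted p = 8.0e-38). Of the 15 complement genes tested, 3 were higher with IFNg and none lower, with a median of 0.34. The proteases C1s1 and C1ra, which act in the first step of the classical pathway, were the others, with C1s1 at 133, 144 and 149.8 CPM with IFNg and 31.1, 29.4 and 21.02 CPM with IFNb (log2 2.32 ± 0.12, adjusted p = 4.3e-23). C1ra had 78.7, 67.9 and 77.2 CPM with IFNg and 33.7, 27.8 and 24.2 CPM with IFNb (log2 1.32 ± 0.12, adjusted p = 9.5e-13). Unlike C4b, these 2 genes leaned upward between NS and IFNb, by a log2 difference of 0.37 for C1s1 and 0.68 for C1ra. Over the complement list, 1 gene was called higher with IFNb than with NS, beside 1.97% of all genes tested.

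Mpeg1, the pore-forming protein perforin-2, had 51.3, 53.7 and 53.8 CPM with IFNg, 0.314, 0.267 and 1.58 CPM with IFNb and 0.131, 0.449 and 0 CPM with NS (log2 6.70 ± 0.30 between the cytokines, adjusted p = 1.5e-25). Apol6, an apolipoprotein L gene, had 44.2, 41.4 and 44.04 CPM with IFNg, 0.627, 0 and 1.05 CPM with IFNb and 0.263, 0.899 and 0.421 CPM with NS (log2 6.41 ± 0.29, adjusted p = 7.6e-26). In both genes the IFNb libraries lay near the NS libraries. Ms4a4d, a membrane protein, had 9.78, 11.6 and 8.198 CPM with IFNg and not 1 count in the IFNb and NS libraries. Against the floor of 3 counts over the IFNb group, Ms4a4d was at least 37.4-fold higher with IFNg (107 counts, adjusted p = 2.6e-13). Ly6a2 likewise had 2.74, 4.85 and 1.77 CPM with IFNg and none with IFNb or NS (at least 10.8-fold, adjusted p = 4.4e-04).

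Of 33 cell death genes tested, 16 were higher with IFNg and none lower (median 0.39). The inflammatory caspases were among them. Casp4, which senses bacterial lipopolysaccharide, had 27, 29.5 and 31.2 CPM with IFNg, 5.49, 6.95 and 6.83 CPM with IFNb and 6.05, 4.04 and 3.16 CPM with NS (log2 2.26 ± 0.21, adjusted p = 3.2e-13). Casp12 had 15.7, 13.4 and 15.3 CPM with IFNg and 2.67, 1.603 and 1.05 CPM with IFNb (log2 2.84 ± 0.25, adjusted p = 2.5e-13), and Casp1, chosen after its values were seen, 38.75, 51.1 and 38.74 CPM with IFNg and 12.7, 13.9 and 11.03 CPM with IFNb (log2 1.73 ± 0.14). Apol10b had 51.7, 43.7 and 51.3 CPM with IFNg, 4.86, 9.09 and 5.25 CPM with IFNb and 5.65, 8.09 and 6.74 CPM with NS, and IFNb and NS were not called apart (log2 -0.08, adjusted p = 1.0). The survival genes Mcl1 (log2 -0.04 ± 0.07) and Bcl2l1 (log2 -0.04 ± 0.07) were not called.

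Surface ligands and secreted signals were mostly level, with a few exceptions. Of 16 checkpoint ligands and evasion genes tested, 4 were higher with IFNg and none lower (median 0.04). Cd274, the PD-1 ligand PD-L1 at chr19:29367455-29388095, had 296, 316 and 334 CPM with IFNg, 38.1, 41.96 and 37.3 CPM with IFNb and 23, 22.7 and 24.6 CPM with NS. It was 8.07-fold higher with IFNg than with IFNb (log2 3.01 ± 0.09, adjusted p = 3.6e-34) and 1.68-fold higher with IFNb than with NS. Cd47, the signal against phagocytosis, was called with a small difference, at 292, 299 and 309 CPM with IFNg and 252, 248 and 246 CPM with IFNb (log2 0.27 ± 0.06, adjusted p = 0.00241). Lgals9 (galectin-9) leaned the other way, at 158, 162 and 157 CPM with IFNg and 200.1, 172 and 177 CPM with IFNb, and missed the threshold (log2 -0.22 ± 0.07, adjusted p = 0.0618). The other members called, Tnfrsf14 (log2 1.11 ± 0.32) and Vsir, which had no count with IFNb, each kept the call in 2 of the 6 fits that left out 1 library. Pvr was not called (adjusted p = 0.663).

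Of 19 chemokine and cytokine genes tested, 2 were higher with IFNg and none lower (median 0.06), beside 2.51% and 1.5% of all genes tested. In this list, 14 of the 21 listed had 3 or fewer counts over the IFNg group and as many over the IFNb group. Cxcl10, a ligand of the chemokine receptor Cxcr3, had 29.4, 23.5 and 23.8 CPM with IFNg, 3.92, 4.54 and 9.98 CPM with IFNb and 8.67, 6.74 and 5.69 CPM with NS. It was 4.89-fold higher with IFNg (log2 2.29 ± 0.28, adjusted p = 6.2e-09), and IFNb and NS were not called apart (log2 -0.51, adjusted p = 0.615). Cxcl9, a second Cxcr3 ligand, had 0, 0.373 and 0.161 CPM with IFNg and no count with IFNb or NS, too few for a comparison. Il15, a cytokine for natural killer and T cells, had 6.26, 4.48 and 5.14 CPM with IFNg and 1.57, 2.67 and 2.102 CPM with IFNb (log2 1.37 ± 0.36, adjusted p = 0.0135), a call kept in 4 of the 6 fits that left out 1 library. Csf1, the growth factor of macrophages, averaged 1496 ± 22.9 CPM with IFNg, 1412 ± 87 CPM with IFNb and 1159.9 ± 13.1 CPM with NS (adjusted p = 0.516 between the cytokines).

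Among serpins and metabolic effectors, 7 of 20 tested were higher with IFNg and none lower (median 0.59). Wars, the tryptophanyl-tRNA synthetase, had 1063, 1152 and 1218 CPM with IFNg, 353, 348 and 368 CPM with IFNb and 369, 369 and 363 CPM with NS, with IFNb and NS overlapping while IFNg stood 3.22-fold above IFNb (log2 1.69 ± 0.10, adjusted p = 1.1e-20). Ido2, an enzyme of tryptophan breakdown, had 14.1, 13.1 and 14.9 CPM with IFNg and 2.35, 1.603 and 1.05 CPM with IFNb (log2 2.92 ± 0.37, adjusted p = 3.8e-08). Ido1, its better-known relative, had only 7 counts over the IFNg group and none over the IFNb group. That call (adjusted p = 0.0421) was kept without IFNg replicate 1 or IFNg replicate 2 and lost without any other of the 6 libraries (highest adjusted p 0.259). Upp1, a uridine phosphorylase, had 16.05, 17.2 and 14.6 CPM with IFNg and 4.86, 5.61 and 8.41 CPM with IFNb (log2 1.45 ± 0.22, adjusted p = 1.5e-06), and Gch1, which makes a cofactor of nitric oxide synthesis, was not called (log2 -0.02 ± 0.08).

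Of the 147 genes higher at least 2-fold, 75 were in one of the lists and 72 in none. Those named next lie outside the lists and were chosen after their values were seen. Fst (follistatin, an activin antagonist) had 52.1, 39.2 and 48.2 CPM with IFNg, 7.21, 6.41 and 6.83 CPM with IFNb and 10.9, 11.7 and 8.21 CPM with NS (log2 2.76 ± 0.17, adjusted p = 1.9e-16). Trafd1, a regulator of innate signalling, had 147, 141 and 142 CPM with IFNg and 44.9, 54.5 and 46.8 CPM with IFNb (log2 1.56 ± 0.09, adjusted p = 7.0e-22). Clec2d, a ligand of an inhibitory receptor of natural killer cells, had 84.1, 72.8 and 58.5 CPM with IFNg and 16.6, 31.5 and 25.7 CPM with IFNb (log2 1.58 ± 0.15, adjusted p = 1.4e-12). In these 3 genes every IFNg library lay above every IFNb library.

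Trim30d, chosen after its values were seen, had 36.8, 34.3 and 33.3 CPM with IFNg, 39.4, 40.4 and 36.8 CPM with IFNb and 15.2, 12.1 and 11.2 CPM with NS. IFNb placed Trim30d 2.97-fold above NS (adjusted p = 4.8e-13), and the cytokines were not called apart (log2 -0.18 ± 0.13, adjusted p = 0.555). Trim30 genes are near-copies, so the division of their reads is uncertain.

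Genes lower with IFNg were fewer, smaller in effect and less stable. Their median log2 difference was -0.37, beside 0.63 for those higher, and of the 243 only 19 were called in all 6 fits that each left out 1 library, against 244 of the 406 higher genes. Without IFNb replicate 1 the number of lower genes was 67, without IFNg replicate 1 it was 93 and without IFNg replicate 2 it was 153. A measure of the libraries moved with them. Genes called lower had a median longest transcript of 5716 bases, those called higher 2823 bases and all genes tested 3170 bases. In the 998 genes with the longest transcripts among those with a mean above 5 CPM, the median log2 deviation from the mean of the 9 libraries was -0.19, -0.06 and -0.04 in the IFNg libraries, 0.16, 0.05 and -0.07 in the IFNb libraries and 0.15, 0.06 and -0.03 in the NS libraries. IFNg replicate 1 and IFNb replicate 1 lay at opposite ends. The part of transcript length in the lower calls was not tested beyond a fit on the 9 CT26.2 libraries with a trend on length removed, an alternative chosen after seeing the data, in which 22 genes were lower, beside 18 in the same fit with no trend removed.

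**Figure D4:**
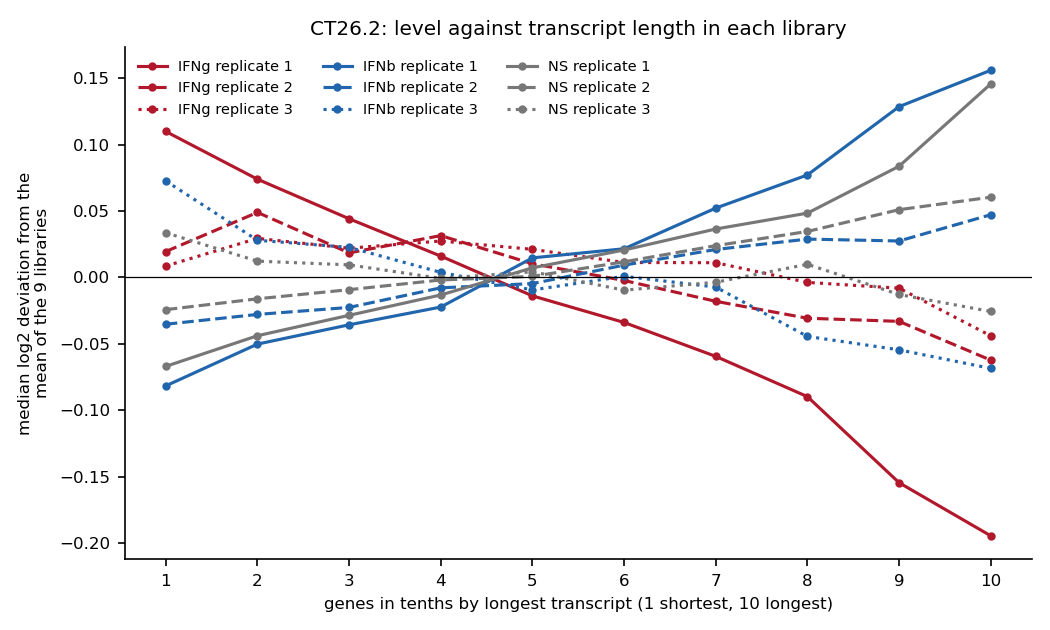
Level against transcript length in the 9 CT26.2 libraries. The x axis groups genes with a mean above 5 CPM into 10 bins by their longest annotated transcript, shortest at the left, the y axis is the median over a bin of the log2 deviation of CPM from the mean of the 9 libraries, and each line is 1 library. IFNg replicate 1 falls to -0.19 in the bin of longest transcripts, while IFNb replicate 1 and NS replicate 1 reach 0.16 and 0.15.

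Acsbg1, an acyl-CoA synthetase, was the 1 gene lower at least 2-fold that was called in all 6 of those fits. It had 9.001, 8.21 and 9.002 CPM with IFNg, 16, 20.6 and 18.9 CPM with IFNb and 22.1, 15.7 and 19.8 CPM with NS (log2 -1.03 ± 0.19, adjusted p = 1.6e-04), so IFNg lay below both other groups. Col1a1, a collagen chain, had 143, 118 and 137 CPM with IFNg, 203, 165 and 195 CPM with IFNb and 186, 172 and 178 CPM with NS (log2 -0.50 ± 0.09, adjusted p = 2.3e-04) and was called in all 6 as well. Tarsl2, Cgnl1 and Ndufa4 were also called in all 6 and are named after their values were seen. Ndufa4, a subunit of the respiratory chain, had 95.1, 92.2 and 88.1 CPM with IFNg, 127, 128 and 140.3 CPM with IFNb and 139, 159 and 152 CPM with NS (log2 -0.52 ± 0.08, adjusted p = 2.2e-06). Cgnl1, a junction protein, had 119, 112 and 122 CPM with IFNg and 173, 159 and 154 CPM with IFNb (log2 -0.47 ± 0.08, adjusted p = 3.0e-05).

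Galnt2, which starts O-linked glycosylation, had 44.2, 26.9 and 49.7 CPM with IFNg, 105, 90.1 and 77.2 CPM with IFNb and 67.7, 79.1 and 73.5 CPM with NS, and the cytokine groups did not overlap (log2 -1.15 ± 0.26, adjusted p = 0.00292). The Galnt2 call was lost without IFNb replicate 1 (adjusted p = 0.0727). Ces2g, a carboxylesterase, had 3.52, 3.73 and 3.54 CPM with IFNg and 7.999, 7.48 and 9.46 CPM with IFNb (log2 -1.17 ± 0.28, adjusted p = 0.00461) and missed the threshold without IFNg replicate 3 (adjusted p = 0.0527). Fv1, a restriction factor against murine leukaemia viruses, had 1.17, 1.87 and 0.964 CPM with IFNg and 5.18, 2.41 and 3.68 CPM with IFNb (log2 -1.66 ± 0.39, adjusted p = 0.00412), and its call was lost without IFNb replicate 1 or IFNg replicate 3 (highest adjusted p 0.299). Irs1, an adaptor of insulin signalling, had 20.4, 30.2 and 24.8 CPM with IFNg, 57.7, 36.6 and 33.6 CPM with IFNb and 26.02, 32.8 and 24.9 CPM with NS. There the IFNg and NS libraries overlapped and the IFNb libraries lay above both (log2 0.72 over NS, adjusted p = 0.00594), widely only in IFNb replicate 1. Without IFNb replicate 1 the difference between the cytokines was not called (adjusted p = 0.323).

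In the list of extracellular matrix and TGF-beta targets, 1 of 30 tested was higher with IFNg and 5 were lower (median -0.20), namely Col1a1, Col5a1, Col5a2, Ccn1 and Ccn2. Of the 5, Col1a1 was called in all 6 fits that left out 1 library. Members lower numbered 1 without IFNb replicate 1 or IFNg replicate 2, 2 without IFNb replicate 3, 3 without IFNg replicate 1 or IFNg replicate 3 and 4 without IFNb replicate 2. With the 6 or the 9 CT26.2 libraries alone 1 was lower, and 0 with the length trend removed as well. Thbs2, a matrix glycoprotein, was the higher one, with 140.5, 163 and 180.4 CPM with IFNg, 92.1, 81.2 and 78.3 CPM with IFNb and 61.6, 63.4 and 46.1 CPM with NS (log2 0.94 ± 0.10, adjusted p = 1.5e-10). Col1a2, whose product pairs with that of Col1a1, was not called (log2 0.08 ± 0.07, adjusted p = 0.661), and Fn1 (fibronectin) was not called (log2 -0.22 ± 0.10, adjusted p = 0.287). The 8 fibroblast markers in the table, Col1a1 among them, summed to 164 to 185 CPM with IFNg, 224 to 261 CPM with IFNb and 216 to 233 CPM with NS, and their part in the matrix calls was not tested.

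Several programmes had few or no genes called between the cytokines. None of the 30 proliferation genes was called, with a median of 0.03 and a range of -0.41 to 0.26. Ccnd1 (cyclin D1) had 732, 759 and 788 CPM with IFNg and 713, 685 and 716 CPM with IFNb. None of the 18 MYC and ribosome biogenesis genes was called (median 0.02), and of the 16 genes of the unfolded protein and ATF4 response 1 was higher (Hspa5, log2 0.17 ± 0.05), a call kept only without IFNb replicate 3 among the 6 fits. Of 17 CDK inhibitors and p53 targets, 1 was lower (Zmat3, log2 -0.31 ± 0.08), and Cdkn1a (p21) averaged 532 ± 37.6 CPM with IFNg and 524 ± 36.5 CPM with IFNb (SD, n = 3 each). No epithelial, intestinal, leukocyte or endothelial marker was called, 2 of 7 fibroblast markers were lower (Col1a1 and Pdgfrb), and of 10 mesenchymal markers 1 was higher (Twist1, log2 0.49 ± 0.11) and 2 were lower (Cdh2 and S100a4). Of 19 NF-kB subunits and targets 1 was higher, the kinase Ripk2 (log2 0.73 ± 0.16, adjusted p = 0.00154), and 1 lower, the inhibitor Tnfaip3 (log2 -0.37 ± 0.10, adjusted p = 0.0227). Of 19 glycolysis and hypoxia genes 1 was higher, the hexokinase Hk2 (log2 0.41 ± 0.10), but the median was 0.25. Against NS, 11 of the 19 were lower with IFNb and 3 with IFNg, beside 0.929% and 3.86% of all genes tested. Their sums overlapped, at 6466 to 8374 CPM with IFNg, 5558 to 7764 with IFNb and 7150 to 10571 with NS. Of 20 cholesterol synthesis genes 1 was lower, Lss (log2 -0.40 ± 0.11). Ripk2 and Col1a1 were called in all 6 fits that left out 1 library, and Zmat3, Pdgfrb, Twist1, Cdh2, S100a4, Tnfaip3, Hk2 and Lss each in 2 to 4 of them. These counts over 16147 genes stand beside the 2.51% higher and 1.5% lower given above.

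The promoters of the separating genes were searched in the 250 bases before each listed start. Counts are of genes, and a gene with a match at any of its starts was counted as holding it. Of the 147 genes higher at least 2-fold, 101 had a promoter in the table, and 28 of them (27.7%) held an ISRE-like match and 14 (13.9%) a GAS match. Over all genes tested, 394 of 11558 promoters (3.41%) held an ISRE-like match and 860 (7.44%) a GAS match. Of the 184 promoters of genes lower with IFNg, 2 (1.09%) held an ISRE-like match and 9 (4.89%) a GAS match. The GTPase list had an ISRE-like match in 11 of 12 promoters and a GAS match in 6. In the antiviral list, whose members were much closer between the cytokines, 14 of 34 promoters held an ISRE-like match and 6 a GAS match. For MHC class I the counts were 3 and 2 of 24. No match says only that these letters were not in this window.

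The other 7 lines were the melanoma lines B16.1 and YUMMER1.7, the pancreatic lines KPC.2 and Panc02.3, the lung line LLC and the colorectal line MC38.7, all labelled C57BL/6, and the renal line Renca, labelled BALB/c, given the same doses for 48 hours, with 3 libraries for each cytokine but 2 for LLC with IFNg. CT26.2 was set against the other lines by testing whether its difference between IFNg and IFNb departed from theirs. Against the mean of the other 7 lines, 362 genes (2.24%) departed upward and 323 (2.0%) downward, 70 (0.434%) and 36 (0.223%) of them by at least 2-fold. Against MC38.7 alone, 753 genes (4.66%) departed upward and 990 (6.13%) downward, 307 (1.90%) and 103 (0.638%) by at least 2-fold. These contrasts take their error from replicate libraries and hold no measure of variation among lines, and strain, line and gene model cannot be told apart in them.

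The antiviral list departed upward from the other lines. Of its 43 members, 35 departed upward from the mean of the other 7 lines and none downward (median 0.76, beside -0.02 over all genes), and 39 departed upward from MC38.7 and none downward (median 2.77, beside -0.06). Oas1a, at 0.09 in CT26.2, had a mean log2 difference of -1.83 in the other 7 lines, with a range of -6.02 to 1.78 (departure 1.92 ± 0.10, adjusted p = 7.0e-22). In MC38.7 it was -6.02, that is, far lower with IFNg than with IFNb. Irf7 was 0.29 in CT26.2 and -1.73 in the mean of the other lines, with a range of -5.72 to 2.0 (departure 2.03 ± 0.09, adjusted p = 3.7e-25). Usp18 was -0.17 in CT26.2 and -1.84 in the other lines, with a range of -6.60 to 1.25 (departure 1.68 ± 0.10, adjusted p = 1.5e-20). In each of these 3 genes some of the other lines lay above 0 and some far below, so the mean of 7 lines stands for no single line, and CT26.2 was within the range of the other lines.

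Of 20 members of the GTPase list, 2 departed upward and 8 downward from the mean of the other 7 lines (median -0.29). Over all genes tested those shares were 2.24% and 2.0%. Departures in the list ran from -1.98 (Gbp8) to 2.67 (Gbp2b). Against MC38.7, 16 members departed upward and none downward (median 1.78), beside 4.66% and 6.13% of all genes. Gbp2 was 3.94 in CT26.2 against 5.01 in the mean of the other lines (departure -1.07 ± 0.10, adjusted p = 7.6e-13) and 2.80 in MC38.7. Igtp was 2.62 in CT26.2 against 3.61 in the other lines (departure -0.99 ± 0.08, adjusted p = 2.1e-14). For MHC class I, 5 of 31 members departed upward and 5 downward from the other 7 lines (median 0.06). From MC38.7, 21 departed upward and none downward (median 0.89). The shares over all genes are those just given. Cd274 was 3.01 in CT26.2, 2.43 in the mean of the other lines and 1.30 in MC38.7.

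Single genes departed from the mean of the other lines. C4b, at 7.02, exceeded all of the other 7 lines, whose differences ran from 1.09 to 6.29 (departure 3.14 ± 0.28, adjusted p = 4.4e-13). Socs1 was 1.22 in CT26.2 and 2.97 in the mean of the other lines, with a range of 0.44 to 5.28 (departure -1.75 ± 0.20, adjusted p = 3.9e-09). Cd74 was 0.15 in CT26.2, while the other lines averaged 5.11 with a range of -0.08 to 10.71 (departure -4.96 ± 0.71, adjusted p = 8.3e-07). MC38.7 had -0.08 for Cd74. Socs1 and Cd74 in CT26.2 thus lay within the range of the other lines, and C4b lay outside it.

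**Figure D5:**
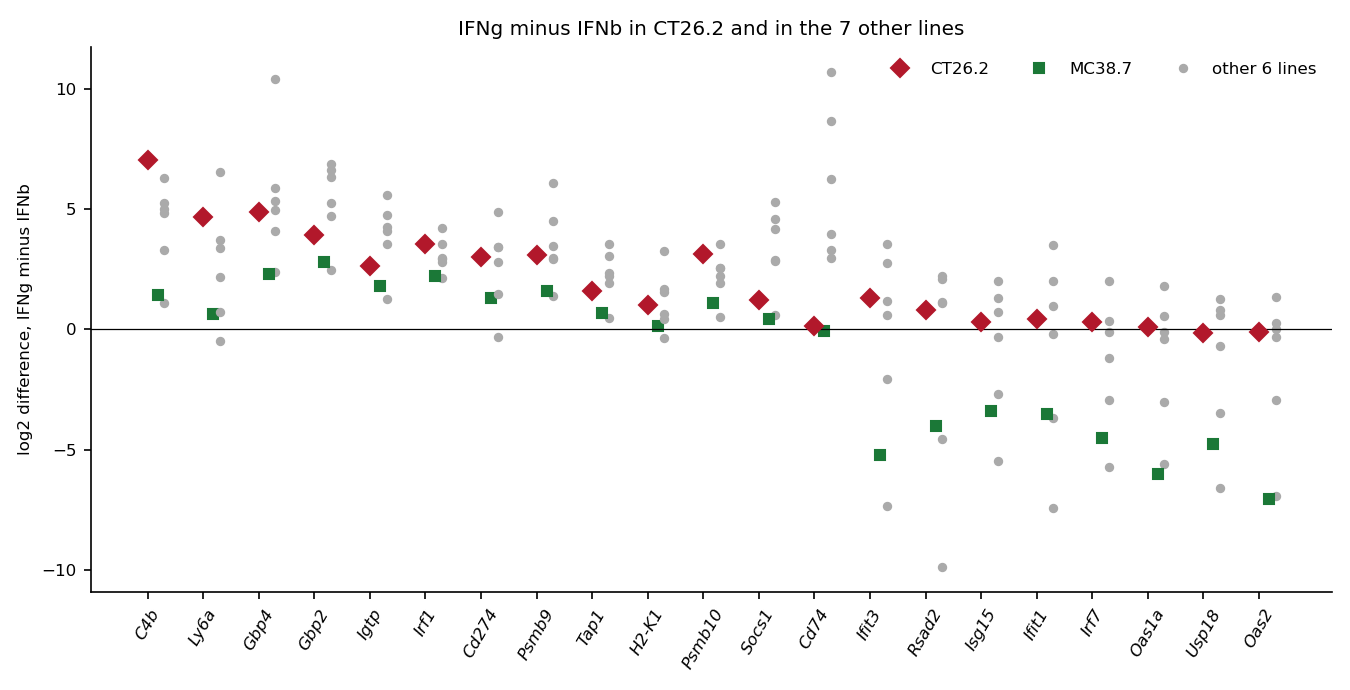
Log2 difference between IFNg and IFNb (y axis) for 21 genes (x axis) in CT26.2 (red diamonds), MC38.7 (green squares) and the other 6 lines (grey points), from 1 fit over all libraries. CT26.2 lies near 0 for Isg15, Irf7, Oas1a, Usp18 and Oas2, where MC38.7 lies between -3.41 and -7.04, and above every other line for C4b.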

How the data were processed

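RNA-seq was measured in 70 libraries of 8 mouse tumour cell lines, of which the 9 CT26.2 libraries are described. The deposited values are estimated counts per gene made by the authors, and the submitters' processing notes name Trimmomatic 0.36, kallisto and mm10. The step that summed transcripts to genes and any strand setting are not given in the sources used here. Per the labels' protocols, libraries came from a directional kit. The estimated counts were rounded to whole numbers. Genes were filtered with filterByExpr, which left 16147 of 35197, and scaled by TMM. One edgeR 4.0.16 quasi-likelihood model in R 4.3.3 was fitted over all 24 groups, which share 1 estimate of the spread, and p-values were adjusted over all genes tested by the Benjamini-Hochberg method. The SE of a log2 difference was taken from the F statistic. Floors cover counting error only. Alternatives used DESeq2 1.42.0, limma 3.58.1, other scalings and filters, fewer libraries and a replicate block. The procedure was tested on simulated data with changes in genes of at least 5 CPM. It recovered 36% of 1.5-fold, 88% of 2-fold and 100% of 4-fold and 8-fold changes, with 6 false calls among 15629 unchanged genes. Small differences can therefore be missed. The simulation gave all genes 1 spread and held no trend with transcript length, so its false calls need not match those in these libraries. Members and lists were chosen with earlier results of these data known. Named genes were the 12 largest differences each way with more than 3 counts in both groups, genes at the floor of 1 group, the leading and the most abundant uncalled members of each list, fixed pathway genes and the largest departures from other lines. Genes outside these rules are said to have been chosen with their values in view. A gene of the lists is not reported here.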

Additional observations from a re-analysis of the deposited data

Results flagged for a closer look

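The genes given here are, for each contrast with other lines, the 5 largest upward and 5 largest downward departures on the log2 scale among genes with a symbol, an adjusted p under 0.05 for the departure and more than 3 counts in both CT26.2 groups. Genes with fewer counts or a larger adjusted p can have larger departures. Against the mean of the other 7 lines the departure was 3.14 for C4b, 3.54 for Mpeg1, 3.84 for Apod, 3.21 for Hlf and 3.05 for Trim30c on the log2 scale. Downward departures from the other 7 lines were -4.96 for Cd74, -3.93 for Gabrr2, -2.72 for Il12rb1, -2.41 for H2-DMa and -2.39 for Apol10b. Of these, Apod had 43.4, 23.9 and 35.4 CPM with IFNg and 12.9, 11.2 and 14.2 CPM with IFNb in CT26.2, while Gabrr2 had 0.391, 0 and 0.482 CPM with IFNg and 0.471, 0.802 and 2.102 CPM with IFNb, close to the floor. Hlf, H2-DMa and Il12rb1 were not called within CT26.2 (adjusted p = 0.469, 0.916 and 0.699).

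Against MC38.7 alone, upward departures were 11.07 for Ifit1bl2, 9.10 for Ifi207, 7.88 for Apod, 7.84 for Mpeg1 and 7.65 for Pax5. Downward departures from MC38.7 were -4.29 for Acot1, -3.56 for Crocc2, -2.35 for Smpd3, -2.21 for Wnt9a and -2.17 for Galnt2. Ifit1bl2 varied widely within CT26.2, at 0, 13.4 and 6.91 CPM with IFNg and 6.74, 0 and 0 CPM with IFNb, and it has near-copies. Pax5 had 0.391, 0 and 0.643 CPM with IFNg and 0.941, 0.534 and 1.58 CPM with IFNb, again close to the floor. Ifi207 had 99.8, 123 and 121 CPM with IFNg and 51.3, 60.9 and 39.9 CPM with IFNb. Causes of these departures were not tested.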

How the results depend on the processing

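Genes higher at least 2-fold, 147 in all, numbered between 117 and 180 under all alternatives run, and 137 to 151 when 1 of the 6 libraries was left out. Genes higher, 406 in all, numbered 217 with the 6 libraries alone, 235 with the 9 CT26.2 libraries alone (231 of them among the 406), 239 with a length trend removed as well (230 among the 406) and 329 to 407 with 1 library left out. Genes lower, 243 in all, numbered 14, 18 and 22 in those 3 fits, 154 with limma-voom, 405 with no filter and 67 to 346 with 1 library left out. The first 3 fits hold fewer samples and none of the other lines. What caused any of these shifts was not tested. Genes lower at least 2-fold, 11 in all, numbered 3, 3 and 4 in those fits, 21 with limma-voom, 75 with no filter, 3 at a mean of at least 5 CPM and 8 to 15 with 1 library left out. The length trend and the 5 CPM threshold were chosen after seeing the data. Distinct list members numbered 138 higher (120 to 137 with 1 library left out) and 12 lower, the last being 1 with 6 libraries, 1 with 9 libraries, 0 with the length trend removed and 1 to 11 with 1 library left out (1 without IFNb replicate 1, 5 without IFNg replicate 1 and 5 without IFNg replicate 2). Departures from the other 7 lines of at least 2-fold numbered 114 upward with limma-voom, in place of 70 (64 to 78 with 1 library left out), and 63 downward with no filter, in place of 36 (29 to 36). Against MC38.7, 163 in place of 103 were downward with no filter (88 to 117 with 1 library left out), and 282 to 318 in place of 307 were upward. Extending the promoter window 50 bases past the start gave 8.57% of all promoters a GAS match and 3.94% an ISRE-like match. For genes higher at least 2-fold the shares were 18.8% for GAS, in place of 13.9%, and 32.7% for ISRE-like, in place of 27.7%.

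Deviations from the group means of same-numbered IFNg and IFNb libraries correlated at -0.38, -0.10 and -0.24. For IFNb with NS the values were 0.09, -0.10 and 0.28, and for IFNg with NS -0.05, 0.07 and -0.24. Each mean rests on 3 libraries and the libraries also differed by transcript length. These correlations therefore cannot show whether replicate numbers pair the samples. With a replicate block, 349 genes were higher and 161 lower, 132 and 10 of them by at least 2-fold.

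Depth limits genes near the floor, where 19 of the 147 had 3 or fewer counts over the IFNb group and 6 of the 11 as few over the IFNg group.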
